A study of Mus musculus with 24 samples.

Results

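The integrated stress response was followed through 10 mouse genes, Atf4, Atf5, Atf3, Ddit3, Ddit4, Trib3, Chac1, Asns, Ppp1r15a and Cebpb, taken by symbol from 4 comparison tables made by the authors. All 10 of 10 were found among the 43626 genes of each fibroblast table. The podocyte tables are limited to genes past an adjusted p of 0.05, and they held 7 of the 10 members with Adriamycin and 1 with vehicle. RNA was sequenced from mouse embryonic fibroblasts (MEFs, passage 2), Mof knockout (KO) or wild type (WT), and from differentiated MPC5 podocytes (passage 20) carrying a Mof knockdown (KD) or a scrambled control. MPC5 is a mouse line of glomerular podocytes, the cells that wrap the capillaries of the kidney filter. Cells received Adriamycin for 24 h, at 0.1 µg/ml for MEFs and 0.25 µg/ml for podocytes, or vehicle (DMSO). This gave 8 groups of 3 samples, and each table sets KO against WT or KD against scramble within 1 cell type and 1 drug condition. How Mof was deleted or silenced, and whether the 3 samples of a group were separate cultures, is unknown from the labels, so p-values measure a spread between samples that may be technical.

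The integrated stress response starts when any of several kinases, PERK, GCN2, PKR or HRI, phosphorylates the initiation factor eIF2. Bulk translation then falls, while the Atf4 mRNA, held back by upstream reading frames, is translated more, so that ATF4 protein can rise without a change in its mRNA. ATF4 pairs with C/EBP proteins and switches on genes of amino acid supply and of stress, among them Ddit3 (CHOP), Trib3 and Asns. Ppp1r15a (GADD34) brings phosphatase to eIF2 and closes the loop. Adriamycin (doxorubicin) poisons topoisomerase II and damages DNA, and Atf3 and Ddit4 are also known targets of p53. MOF, the product of Kat8, acetylates histone H4.

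Kat8 was lower in every table. The authors' deposited table gives it a log2 fold change of -1.71 ± 0.16 (SE) in KO over WT MEFs with Adriamycin and -1.96 ± 0.20 with vehicle, and of -1.24 ± 0.14 in KD over scramble podocytes with Adriamycin and -1.49 ± 0.15 with vehicle. The direction of all fold changes was read from this sign, so Kat8 does not test the labels. Fold changes are on the log2 scale throughout and set KO over WT or KD over scramble. No file holds a value per sample, so library depth and per-sample values are unknown. The level of a group was therefore derived from the mean normalized count of the 6 samples and the fold change, and has no error of its own. All 7 fibroblast markers, such as Col1a1 and Vim, had mean counts of at least 100 in both MEF tables. Of 7 podocyte markers, Synpo and Podxl were listed in both podocyte tables, and Nphs1, which encodes nephrin, in neither, which those tables cannot tell from no change.

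The promoters of the members were read because ATF4 acts there with C/EBP partners, at an element whose core is TGATGNAA. The RefSeq promoter table (GRCm38.p6) holds windows of 250 bases before to 50 bases after each transcript start. On either strand, 4 of the 10 members, which have 11 windows in all, had this core in a window. Of the 32851 windows in the table, counted singly and not by gene, 3.97% held it. The 4 members were Atf3, Chac1, Asns and Trib3. The stretches that hold the matches are shown 5′ to 3′ on the strand of the gene, with the match in capitals. Ppp1r15a is shown for a cAMP response element core, TGACGTCA, the palindrome bound by ATF and CREB dimers, found in 1.79% of windows. Ddit3 is shown as the member with the largest change in MEFs. The last 2 motifs searched, TGACGTCA and the ER stress response element (CCAAT and CCACG with 9 bases between them, 0.119% of windows and no member), were chosen after the data were seen. Only exact matches were counted. On its other strand the Ddit3 stretch holds CCAAT and GCACG with 9 bases between them. This differs from the searched form in the first letter of the second part.
Atf3, chr1:191183384-191183483, minus strand: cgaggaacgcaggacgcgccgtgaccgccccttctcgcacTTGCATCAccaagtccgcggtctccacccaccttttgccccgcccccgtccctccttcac
Chac1, chr2:119351012-119351111, plus strand: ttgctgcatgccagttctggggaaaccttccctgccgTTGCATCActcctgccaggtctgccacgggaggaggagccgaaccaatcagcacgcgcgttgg
Asns, chr6:7693214-7693243, minus strand: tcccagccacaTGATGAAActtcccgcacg
Trib3, chr2:152344028-152344057, minus strand: ttagctcaggtTTACATCAgccgggcgggg
Ppp1r15a, chr7:45526269-45526368, minus strand: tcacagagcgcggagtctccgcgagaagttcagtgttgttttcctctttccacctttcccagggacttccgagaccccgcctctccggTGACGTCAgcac
Ddit3, chr10:127290663-127290762, plus strand: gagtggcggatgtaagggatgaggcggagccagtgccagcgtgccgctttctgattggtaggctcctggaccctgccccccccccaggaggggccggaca
Counted from the RefSeq start, the match began at base -110 in Atf3 and at -23 in Asns, and both lie inside the longer GENCODE gene. It began at -193 in Chac1 and at 15 in Trib3, where it lies before the GENCODE start. In Atf3 and Chac1 the letters were the same, TTGCATCA, which reads TGATGCAA on the other strand and was present in 0.895% of windows. A match is a description of letters, not of binding.

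Mof KO and WT MEFs given Adriamycin were compared to ask how these genes differ with loss of MOF in cells given the drug. An adjusted p under 0.05 in the authors' deposited table was the threshold for change. Of the 10 members, 6 rose in KO MEFs and none fell: Ddit3, Atf3, Atf5, Trib3, Ppp1r15a and Asns. In the authors' deposited table, 32.7% of all 14139 tested genes passed the threshold, 16.6% on the higher and 16.1% on the lower side. The median log2 fold change was 0.64 over the 10 members and -0.02 over all tested genes. The 10 members had mean normalized counts between 108 and 3495 in this table, so a low count removed none of them from the test. With Bonferroni adjustment, Trib3, Ppp1r15a and Asns lost their calls. The members were chosen with results of these data known, and these counts describe them without testing them as a set.

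**Figure D1:**
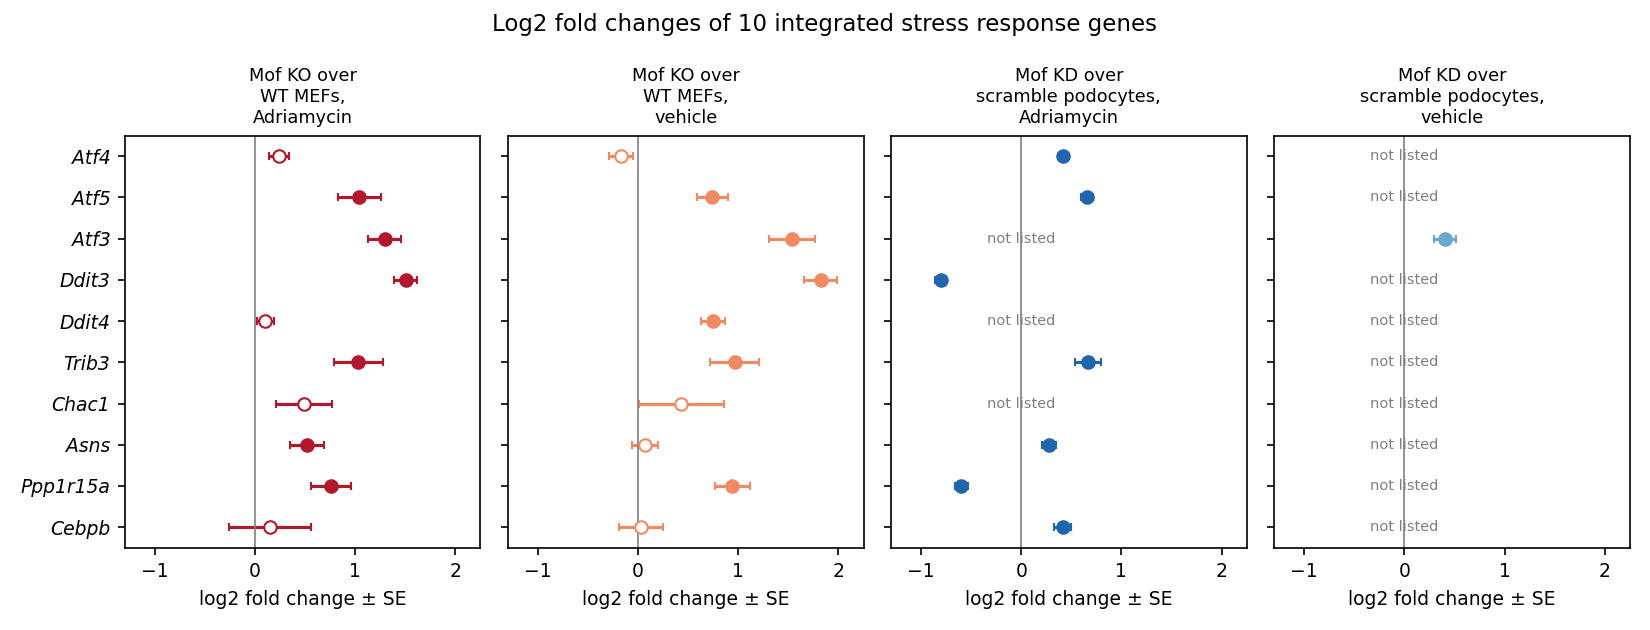
Log2 fold change (x axis) of each of the 10 genes (y axis) in the 4 tables of the authors, Mof-depleted over control, with bars of 1 SE. Filled points have an adjusted p below 0.05, open points do not, and "not listed" marks genes that a podocyte table leaves out. Ddit3 is the rightmost gene in both MEF panels and the leftmost in the panel of podocytes given Adriamycin.

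Ddit3 encodes CHOP, a bZIP factor that can promote cell death under lasting stress (ENSMUSG00000025408, GRCm38 chromosome 10, 127290774 to 127296288, protein coding). Its derived level with Adriamycin was 2340 normalized counts in KO MEFs and 826 in WT MEFs. The log2 fold change in the authors' deposited table was 1.50 ± 0.11 (SE), or 2.83-fold with a 95% interval of 2.42 to 3.31, and the DESeq2 adjusted p of the authors was 1.48e-35. Exons of Ddit3 overlap those of Mars, which runs on the other strand, and the labels do not say if reads were counted by strand. GENCODE M21 also holds the noncoding Gm4189 on the other strand and a second Ddit3 entry, ENSMUSG00000116429, on the same strand. The authors' tables hold no second entry under the symbol Ddit3, and whether the annotation they counted with held it is unknown here. Reads of Ddit3 may be shared with genes on the other strand, or split if that entry was counted, and its level is uncertain to that extent. Mars itself was at -0.18 ± 0.08 in the authors' deposited table of these samples and did not pass the threshold, with an adjusted p of 0.0821.

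Atf3 encodes a bZIP factor of the same stress programme that can repress as a homodimer (ENSMUSG00000026628, chromosome 1, 191170296 to 191218039, protein coding). In MEFs given Adriamycin its derived level was 307 in KO and 125 in WT, and its log2 fold change in the authors' deposited table was 1.30 ± 0.17 with an adjusted p of 6.44e-13. Atf5, an ATF4 relative under similar translational control (ENSMUSG00000038539, chromosome 7, 44812256 to 44816658, protein coding), had a derived level of 1962 in KO and 953 in WT MEFs. Its log2 fold change was 1.04 ± 0.22 in the authors' deposited table, with an adjusted p of 2.58e-05. Exons of Atf5 overlap Nup62 on the opposite strand, which rose by 0.48 ± 0.09 in the authors' deposited table of the same samples, and exons of Il4i1.

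Atf4, at the head of the programme, did not pass the threshold. The gene (ENSMUSG00000042406, chromosome 15, 80255184 to 80257541, protein coding) was at 3788 derived counts in KO and 3202 in WT MEFs with Adriamycin. Its log2 fold change of 0.24 ± 0.10 in the authors' deposited table just missed the threshold, with an adjusted p of 0.0519. It passed when the adjustment covered only genes averaging 100 normalized counts or more (0.0453) and when fold changes were centred on their median (0.0346), which would make 7 members higher. Cebpb, the C/EBP partner of ATF4 among the members (ENSMUSG00000056501, chromosome 2, 167688915 to 167690418, protein coding), was at 0.15 ± 0.41 in the authors' deposited table. Its SE was the largest among the members in this comparison, and a 95% interval of 0.633-fold to 1.94-fold leaves both directions possible. Exons of Cebpb overlap Tmem189 on the opposite strand.

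Among the target genes, Trib3 encodes a pseudokinase that holds back AKT signalling and ATF4 itself (ENSMUSG00000032715, chromosome 2, 152337422 to 152344032, protein coding). It was at 145 derived counts in KO and 70.7 in WT MEFs with Adriamycin, and its log2 fold change in the authors' deposited table was 1.03 ± 0.25 with an adjusted p of 0.000318. Asns, asparagine synthetase (ENSMUSG00000029752, chromosome 6, 7675169 to 7693254, protein coding), was at 1368 in KO and 954 in WT. The log2 fold change of Asns in the authors' deposited table was 0.52 ± 0.17 with an adjusted p of 0.0111. Chac1, an enzyme that breaks down glutathione (ENSMUSG00000027313, chromosome 2, 119351229 to 119354381, protein coding), was at 246 in KO and 175 in WT, and the authors' deposited table gives 0.49 ± 0.28 with an adjusted p of 0.169. The 95% interval of Chac1, 0.962-fold to 2.05-fold, reaches past the change seen for Asns. Asns and Trib3 rose and Chac1 did not pass the threshold, although all 3 carry a TGATGNAA core in the windows shown.

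Of the genes that feed back on translation, Ppp1r15a, the stress-induced phosphatase subunit for eIF2 (ENSMUSG00000040435, chromosome 7, 45522916 to 45526268, protein coding), was at 2601 in KO and 1538 in WT MEFs with Adriamycin. Its log2 fold change in the authors' deposited table was 0.76 ± 0.20 with an adjusted p of 0.000919. Ddit4 encodes REDD1, an inhibitor of mTORC1 (ENSMUSG00000020108, chromosome 10, 59949669 to 59951834, protein coding). It was at 2031 in KO and 1890 in WT MEFs, and its log2 fold change of 0.10 ± 0.09 in the authors' deposited table did not pass the threshold, with an adjusted p of 0.383.

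With vehicle, 6 of the 10 members rose in KO MEFs and none fell. They were Ddit3, Atf3, Ppp1r15a, Trib3, Ddit4 and Atf5, so that Ddit4 stood in place of Asns. In the authors' deposited table, 37.5% of all 15605 tested genes passed the threshold, 17.8% on the higher and 19.6% on the lower side. The median log2 fold change was 0.74 over the 10 members and 0.01 over all tested genes.

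Ddit3 again changed most, with a derived level of 1828 in KO and 516 in WT MEFs under vehicle. Its log2 fold change was 1.82 ± 0.16 in the authors' deposited table, or 3.54-fold with a 95% interval of 2.83 to 4.43, at an adjusted p of 1.49e-26. Its opposite-strand neighbour Mars fell by 0.40 ± 0.08 in the authors' deposited table, against the direction of Ddit3. Atf3 was at 271 in KO and 93.4 in WT, with a log2 fold change of 1.54 ± 0.23 in the authors' deposited table (adjusted p 4.54e-10). Both genes more than doubled on the fold scale, and they were the members past a log2 fold change of 1 under vehicle.

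Trib3 was at 599 in KO and 307 in WT MEFs under vehicle, and the authors' deposited table gives 0.96 ± 0.24 with an adjusted p of 0.000373. Ppp1r15a, at 1600 in KO and 834 in WT, had a log2 fold change of 0.94 ± 0.18 in the authors' deposited table (adjusted p 1.13e-06). Ddit4 was at 1740 in KO and 1037 in WT, and rose by 0.75 ± 0.12 in the authors' deposited table with an adjusted p of 1.71e-09. Atf5 was at 4809 in KO and 2880 in WT, and rose by 0.74 ± 0.16 in the authors' deposited table with an adjusted p of 1.49e-05. These 4 genes lay between 1.67-fold and 1.95-fold, and Trib3 lost its call with Bonferroni adjustment.

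Atf4 mRNA did not pass the threshold under vehicle. It was at 4839 derived counts in KO and 5452 in WT MEFs, and its log2 fold change in the authors' deposited table was -0.17 ± 0.12 with an adjusted p of 0.257. Its 95% interval ran from 0.757-fold to 1.04-fold. Asns was at 3173 in KO and 3025 in WT, with 0.07 ± 0.13 in the authors' deposited table (adjusted p 0.719). The interval of Asns, 0.882-fold to 1.25-fold, lies below the fold changes of Trib3 and Ppp1r15a. Chac1, at 0.43 ± 0.42, and Cebpb, at 0.03 ± 0.22, did not pass in the authors' deposited table, and the interval of Chac1 spans 0.758-fold to 2.40-fold.

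**Figure D2:**
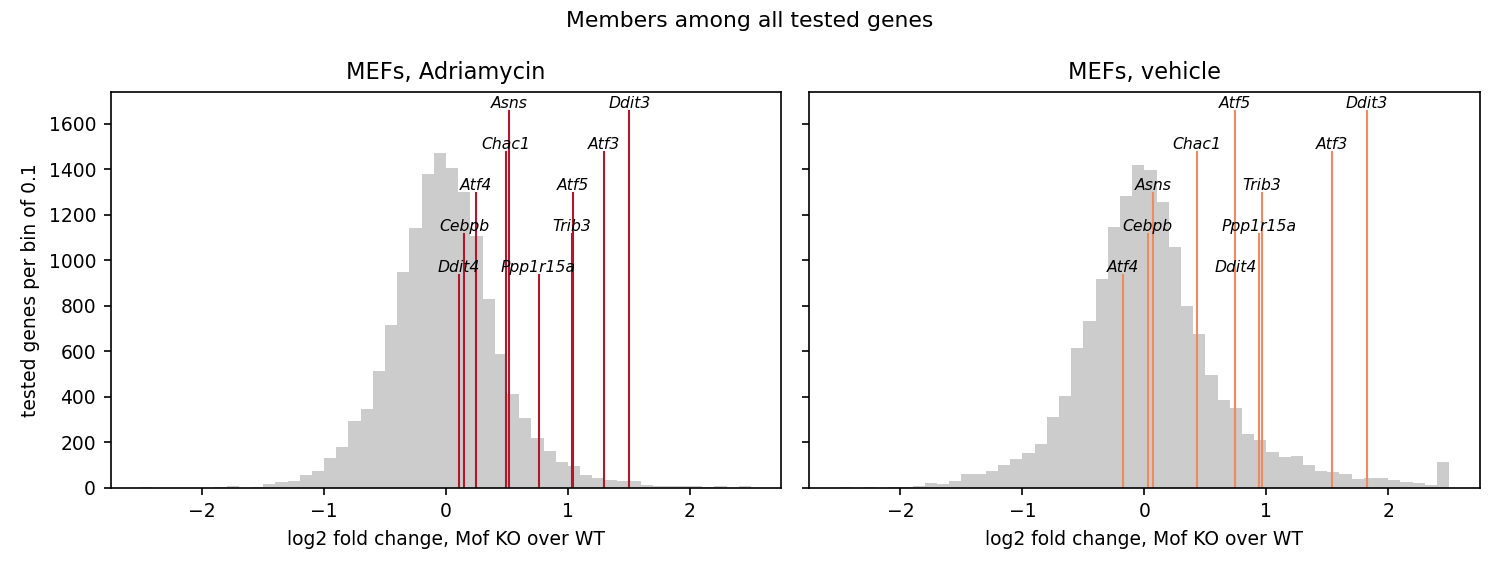
Histogram of the log2 fold change (x axis, Mof KO over WT) of all tested genes in MEFs given Adriamycin (left) and vehicle (right), as genes per bin of 0.1 (y axis), with values beyond 2.5 placed in the outermost bins. Lines mark the 10 members. Ddit3 lies at 1.50 with Adriamycin and 1.82 with vehicle, and Atf4, Asns and Cebpb sit near the centre under vehicle.

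Other genes around the pathway were taken from 8 lists of 94 genes in all, of which 14 belong to the ATF6 and XBP1 arm, kept as a contrast. Leaving that arm out, 29 of 77 tested genes rose in KO MEFs and 5 fell with Adriamycin, and 19 of 78 rose and 13 fell with vehicle. Their median log2 fold change was 0.20 with Adriamycin and -0.01 with vehicle. These genes changed in 44.2% of cases with Adriamycin, against 32.7% of all tested genes, and in 41.0% with vehicle, against 37.5%. With the arm, 31 of 91 rose and 7 fell with Adriamycin, and 20 of 92 rose and 24 fell with vehicle. The share of changed genes in the lists of synthetases and tRNA export (38.5% with Adriamycin and 30.8% with vehicle), kinases and eIF2 (35.3% with Adriamycin and 41.2% with vehicle) and amino acid and one-carbon synthesis (25.0% in both) lay near or below that of all genes.

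**Figure D3:**
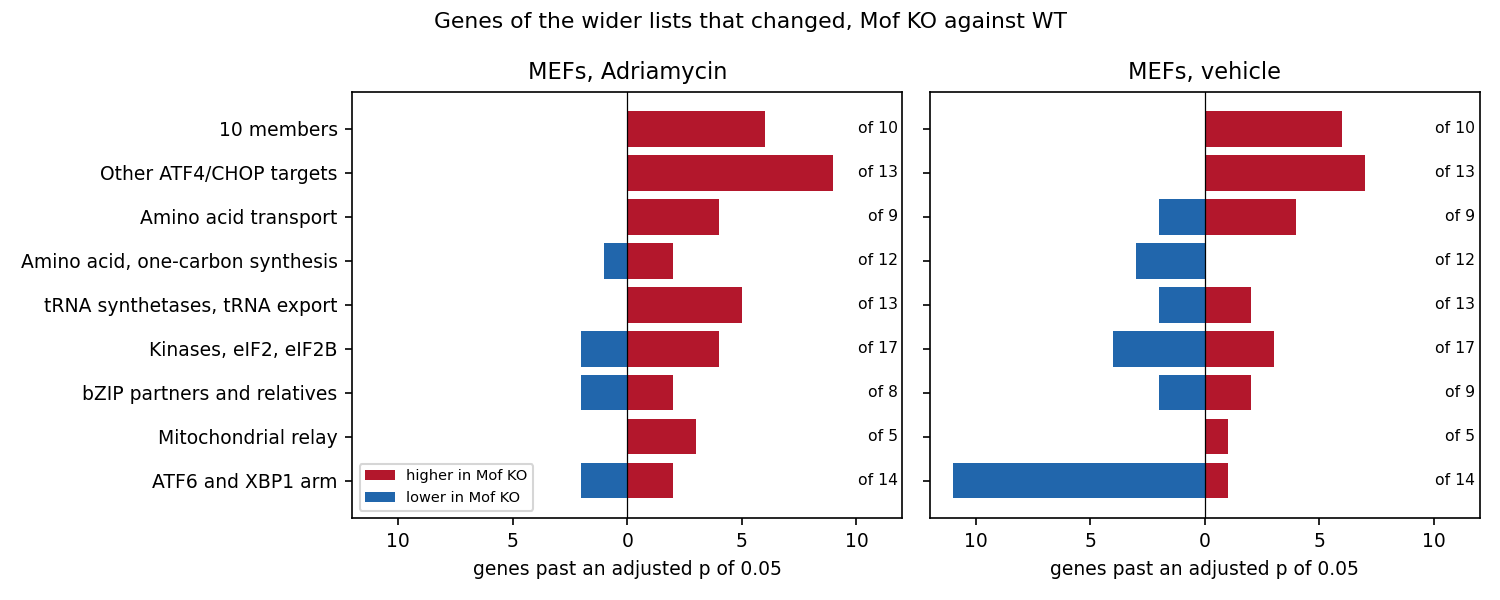
Number of genes (x axis) of each list (y axis) that were higher (red, to the right) or lower (blue, to the left) in Mof KO than in WT MEFs at an adjusted p below 0.05, with Adriamycin (left panel) and vehicle (right panel). Numbers at the right edge give the genes tested. The ATF6 and XBP1 arm has 11 of 14 genes lower with vehicle and 2 of 14 lower with Adriamycin.

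Of 13 other ATF4 or CHOP targets tested, 9 rose in KO MEFs with Adriamycin and 7 with vehicle, and none fell. Of all tested genes 16.6% rose with Adriamycin and 17.8% with vehicle. Gdf15, a secreted stress hormone that p53 also induces, rose by 1.42 ± 0.17 with Adriamycin and by 2.17 ± 0.18 with vehicle in the authors' deposited table of each condition. Eif4ebp1, which restrains cap-dependent translation, rose by 0.75 ± 0.15 with Adriamycin in the authors' deposited table. Sesn2, a leucine sensor upstream of mTORC1 and also a p53 target, rose by 0.73 ± 0.11 with vehicle in the authors' deposited table.

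Of 9 amino acid transporter genes, 4 rose and none fell with Adriamycin, while 4 rose and 2 fell with vehicle. Slc3a2, the shared heavy chain of several exchangers, rose by 0.89 ± 0.13 with Adriamycin and by 0.45 ± 0.11 with vehicle in the authors' deposited table of each condition. The glycine transporter gene Slc6a9 rose by 1.0 ± 0.20 with Adriamycin, and Slc1a4, which carries neutral amino acids, by 0.55 ± 0.13 with vehicle, in the authors' deposited table of each condition. Slc7a5, the light chain that pairs with Slc3a2 for leucine uptake, fell by 0.52 ± 0.16 with vehicle in the authors' deposited table. Slc1a5, a glutamine transporter gene, fell by 0.50 ± 0.17 there in the authors' deposited table.

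Of 13 genes for aminoacyl-tRNA synthetases and tRNA export, 5 rose and none fell with Adriamycin, and 2 rose and 2 fell with vehicle. Aars was at 0.74 ± 0.09 with Adriamycin and 0.51 ± 0.10 with vehicle, and Sars at 0.68 ± 0.09 with Adriamycin and 0.53 ± 0.11 with vehicle, in the authors' deposited table of each condition. Wars, which interferon also induces, fell by 0.34 ± 0.10 with vehicle in the authors' deposited table. Of 12 genes of amino acid and one-carbon synthesis, 2 rose and 1 fell with Adriamycin, and none rose and 3 fell with vehicle. Aldh1l2, a mitochondrial folate enzyme gene, rose by 1.06 ± 0.32 and Gpt2, a transaminase gene, fell by 0.54 ± 0.18 with Adriamycin in the authors' deposited table. Psat1, a serine synthesis gene, rose by 0.53 ± 0.21 with Adriamycin and fell by 0.31 ± 0.11 with vehicle in the authors' deposited table of each condition.

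Upstream, 17 genes for the eIF2 kinases, eIF2, its exchange factor eIF2B and their regulators were tested. With Adriamycin 4 rose and 2 fell, and with vehicle 3 rose and 4 fell. Impact, which restrains the amino acid sensing kinase GCN2, rose by 0.68 ± 0.08 with Adriamycin and by 1.33 ± 0.09 with vehicle in the authors' deposited table of each condition. Eif2ak2, which encodes the double-stranded RNA sensor PKR and is induced by interferon, rose by 1.10 ± 0.14 with vehicle in the authors' deposited table. Eif2ak1, the HRI kinase gene, fell by 0.28 ± 0.11 with Adriamycin and by 0.55 ± 0.10 with vehicle in the authors' deposited table of each condition. Eif2b1, the alpha subunit of eIF2B, fell by 0.29 ± 0.12 with Adriamycin and by 0.64 ± 0.10 with vehicle in the authors' deposited table of each condition. The calls of Eif2ak1 and Eif2b1 with Adriamycin ended when fold changes were centred on their median and when no filter on low counts was applied, and without that filter those of Psat1 and Cebpa with Adriamycin ended as well. Among bZIP partners and relatives, Cebpa (0.85 ± 0.32 with Adriamycin and 0.73 ± 0.24 with vehicle) and Nfe2l2 (0.44 ± 0.15 with Adriamycin and 0.50 ± 0.09 with vehicle) rose in the authors' deposited table of each condition. In all, 2 of the 8 genes tested in that list rose and 2 fell with Adriamycin, and 2 of 9 rose and 2 fell with vehicle. Of 5 mitochondrial chaperone and protease genes, 3 rose with Adriamycin and 1 with vehicle, Hspe1 being at 0.56 ± 0.09 with Adriamycin and 0.25 ± 0.08 with vehicle in the authors' deposited table of each condition.

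The ATF6 and XBP1 arm of the unfolded protein response, which builds chaperones of the endoplasmic reticulum, served as a contrast. Under vehicle 11 of its 14 genes fell in KO MEFs and 1 rose, at a median log2 fold change of -0.37. Of all tested genes 19.6% fell and 17.8% rose. Hsp90b1, an endoplasmic reticulum chaperone, fell by 0.64 ± 0.08 and Creld2 by 0.79 ± 0.13, while Dnajb9, a co-chaperone, rose by 0.46 ± 0.12, in the authors' deposited table. With Adriamycin 2 of the 14 rose and 2 fell, at a median of -0.01, where 16.6% of all tested genes rose and 16.1% fell. Edem1, of misfolded protein disposal, rose by 0.46 ± 0.12, Dnajb9 rose by 0.59 ± 0.16, Sel1l fell by 0.37 ± 0.08 and Atf6 fell by 0.52 ± 0.14 with Adriamycin in the authors' deposited table.

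The MEF tables were also compared gene by gene, to ask whether Adriamycin changed the effect of Mof loss. They share no sample. Of the 10 members only Ddit4 differed: its log2 fold change was 0.10 with Adriamycin and 0.75 with vehicle, a difference of -0.64 ± 0.14 (SE, z test, adjusted p 0.000525 over 13973 genes). Over those genes 7.09% differed, 3.49% with a higher value under Adriamycin and 3.61% with a lower one. The call for Ddit4 ended with Bonferroni adjustment (adjusted p 0.123).

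**Figure D4:**
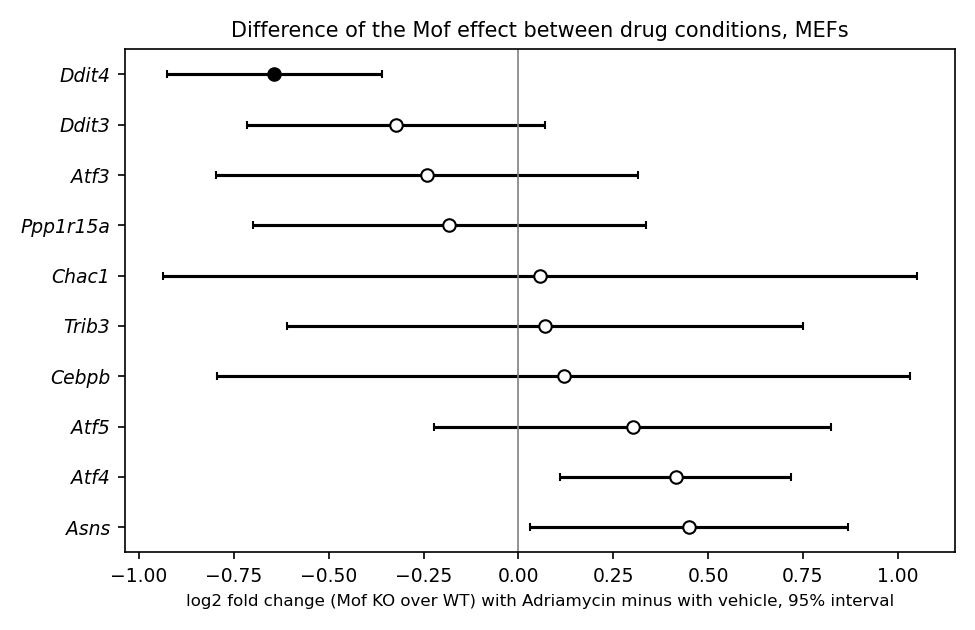
Log2 fold change (Mof KO over WT MEFs) with Adriamycin minus that with vehicle (x axis) for each member (y axis), with 95% intervals from the standard errors of both tables. Ddit4 (filled) has an adjusted p below 0.05 over all genes, at -0.64. The intervals of Atf4 and Asns lie above 0 before adjustment.

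Atf4 and Asns pointed upward, with differences of 0.41 ± 0.16 and 0.45 ± 0.21, and neither passed over all genes (z test, adjusted p 0.0812 and 0.204). The difference was -0.32 ± 0.20 for Ddit3, with a 95% interval of -0.71 to 0.07, so the smaller value of Ddit3 with Adriamycin was within its error. For Chac1 and Cebpb the intervals spanned nearly 1 log2 unit on each side of 0 and the data say little.

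The wider lists gave 14 genes with a higher effect under Adriamycin and 5 with a lower one, of 91 tested, and 6 higher and 5 lower of 77 without the ATF6 and XBP1 arm. Of all 13973 genes compared 3.49% were higher and 3.61% lower. In the ATF6 and XBP1 arm 8 of 14 were higher, among them Hspa5, the chaperone BiP, with a difference of 0.57 ± 0.13 (z test, adjusted p 0.000325). In amino acid and one-carbon synthesis 3 of 12 were higher: Psat1 by 0.83 ± 0.24, Mthfd2 by 0.82 ± 0.25 and Shmt2 by 0.68 ± 0.20. Among other ATF4 or CHOP targets 3 of 13 were lower, with differences of -0.75 ± 0.25 for Gdf15, -0.64 ± 0.20 for Bbc3 and -0.45 ± 0.14 for Sesn2. Gdf15 and Sesn2 were named above as p53 targets too, and a part of p53 in these differences was not tested. Genes named in this paragraph were chosen after their values were seen.

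The levels behind these differences are set side by side in the plot of MEF group levels. Each MEF table was normalized on its own, and the mean counts of each sum to 2.11e+07, so levels across drug conditions are a description without a test. Asns was at 954 in WT MEFs with Adriamycin and 3025 in WT MEFs with vehicle, Trib3 at 70.7 with Adriamycin and 307 with vehicle, and Atf5 at 953 with Adriamycin and 2880 with vehicle. Ddit4 was at 1890 in WT MEFs with Adriamycin and 1037 with vehicle, Ppp1r15a at 1538 with Adriamycin and 834 with vehicle, and Ddit3 at 826 with Adriamycin and 516 with vehicle. In KO MEFs, Ddit4 was at 2031 with Adriamycin and 1740 with vehicle, which is closer than in WT.

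**Figure D5:**
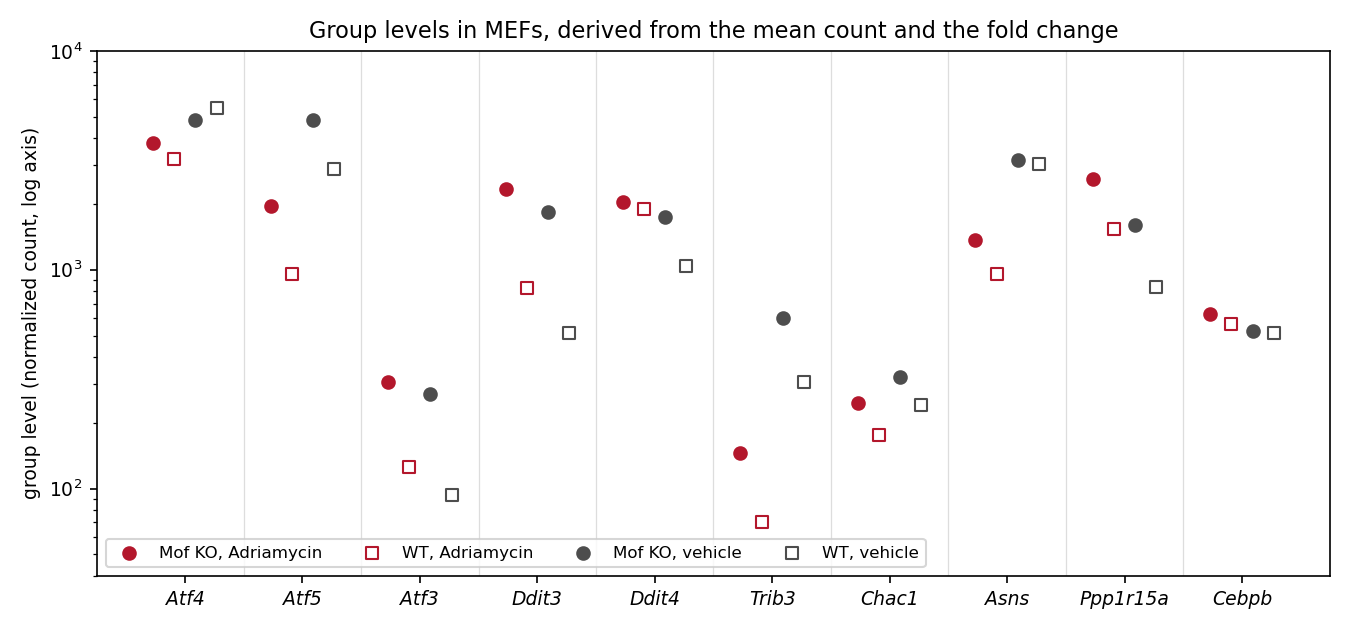
Derived level in normalized counts (y axis, log scale) of each member (x axis) in Mof KO MEFs (filled circles) and WT MEFs (open squares), given Adriamycin (red) or vehicle (grey); no error can be given for a derived level. Asns, Atf5 and Trib3 lie lower in the Adriamycin groups than in the vehicle groups of the same genotype, and Ppp1r15a and Ddit3 higher.

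Per kilobase of exon in GENCODE M21, Atf4 had the highest mean count of the members in both MEF tables, 1482 with Adriamycin and 2182 with vehicle. Next came Ddit4 (1117) and Ddit3 (924) with Adriamycin, and Atf5 (1929) and Asns (1133) with vehicle. The lowest were Trib3 with Adriamycin (50.7) and Atf3 with vehicle (84.5). These means cover 3 KO and 3 WT samples, have no per-sample spread and were not tested against each other.

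Some macrophage and leukocyte genes were higher in KO MEFs with vehicle. Of 8 marker symbols, 7 were listed and tested, none at 0, with means between 58.1 (Ptprc) and 1924 (Lyz2) under vehicle. The symbol not listed, Adgre1, is another name of the Emr1 gene. With Adriamycin none of the 7 passed, and with vehicle 4 rose (57.1%, against 37.5% of all tested genes changed), namely C1qa, Cd68, Emr1 and Lyz2. With vehicle, Csf1r (-0.12 ± 0.25), Itgam (0.04 ± 0.27) and Ptprc (0.36 ± 0.30) did not pass in the authors' deposited table. Their summed derived level was 5285 in KO and 3921 in WT MEFs with Adriamycin, and 4138 in KO and 2094 in WT MEFs with vehicle, where Lyz2 made up most of it. Their part in the member values was not tested. Fewer cells of a type and less RNA per cell cannot be told apart in such bulk samples.

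In podocytes given Adriamycin, KD was compared with scramble. Of the 10 members, 5 rose, Atf4, Atf5, Trib3, Cebpb and Asns, and 2 fell, Ddit3 and Ppp1r15a. In the authors' deposited table, 55.7% of 17184 tested genes passed the threshold, 27.8% on the higher and 27.9% on the lower side. Atf3, Ddit4 and Chac1 were not listed, so they did not pass or were not tested.

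Atf4 was at 9676 derived counts in KD and 7270 in scramble podocytes with Adriamycin. Its log2 fold change was 0.41 ± 0.04 (SE) in the authors' deposited table, with an adjusted p of 6.19e-26. Atf5 was at 2366 in KD and 1499 in scramble, with 0.66 ± 0.06 in the authors' deposited table (adjusted p 1.00e-26). Cebpb, at 655 in KD and 492 in scramble, rose by 0.41 ± 0.08 in the authors' deposited table, with an adjusted p of 2.79e-06. All 3 factors were higher in KD podocytes, at 1.33-fold for Atf4 and Cebpb and 1.58-fold for Atf5. The opposite-strand neighbours moved by like amounts in the authors' deposited table, Nup62 of Atf5 by 0.64 ± 0.07 and Tmem189 of Cebpb by 0.43 ± 0.09. Without known strand, reads of Atf5 and Cebpb cannot be told apart from those of these neighbours where the exons overlap.

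Trib3 was at 314 in KD and 198 in scramble podocytes with Adriamycin, with 0.67 ± 0.13 in the authors' deposited table (adjusted p 1.31e-06). Asns was at 2006 in KD and 1657 in scramble, with 0.28 ± 0.07 in the authors' deposited table (adjusted p 0.000246). Asns lost its call with Bonferroni adjustment.

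Ddit3 fell to 1775 derived counts in KD podocytes, against 3099 in scramble podocytes, both with Adriamycin. Its log2 fold change in the authors' deposited table was -0.80 ± 0.05, or 0.573-fold with a 95% interval of 0.533 to 0.616, at an adjusted p of 1.91e-50. Mars, on the opposite strand of Ddit3, moved against it here too and rose by 0.74 ± 0.06 in the authors' deposited table. Ppp1r15a was at 1347 in KD and 2039 in scramble, with -0.60 ± 0.06 in the authors' deposited table (adjusted p 2.05e-20). Ppp1r15a, which CHOP is known to induce, fell as Ddit3 did, while Trib3, another known CHOP target, rose.

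The wider lists had 40 genes higher and 31 lower in KD podocytes with Adriamycin, of 94 looked for. Of all 17184 tested genes 27.8% were higher and 27.9% lower. Of the 13 genes for synthetases and tRNA export, 8 rose and 2 fell. Tars was at 1.09 ± 0.05 and Lars at 0.99 ± 0.06, and Cars fell by 0.74 ± 0.05, in the authors' deposited table. Of 12 genes of amino acid and one-carbon synthesis, 7 rose and 3 fell. Mthfd2, a mitochondrial folate enzyme gene, rose by 1.43 ± 0.07 and Aldh18a1, of proline synthesis, by 1.0 ± 0.07 in the authors' deposited table. Cth, of cysteine synthesis, fell by 0.64 ± 0.10 in the authors' deposited table.

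Of 9 transporter genes 3 rose and 5 fell in these podocytes. Slc38a2, a neutral amino acid transporter, was at 1.05 ± 0.04 and Slc7a1, an arginine transporter, at 0.89 ± 0.05, while Slc1a5 was at -1.19 ± 0.07 and Slc6a9 at -1.05 ± 0.07, in the authors' deposited table. Of 17 upstream genes 4 rose and 9 fell. Eif2ak4, the GCN2 gene, fell by 1.10 ± 0.07 and Impact by 1.14 ± 0.07, while Eif2b5, the catalytic subunit of eIF2B, rose by 0.68 ± 0.07, in the authors' deposited table. Other ATF4 or CHOP targets had 5 higher and 3 lower of 14. Gdf15 rose by 1.37 ± 0.08 and the death gene Bbc3 (PUMA) by 0.65 ± 0.07, while Vegfa fell by 1.27 ± 0.05 and Vldlr by 0.90 ± 0.08, in the authors' deposited table.

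Of the 10 bZIP partners and relatives 5 rose and 2 fell, with Cebpa at -2.52 ± 0.10 and Jun at 0.41 ± 0.06 in the authors' deposited table. The ATF6 and XBP1 arm had 7 genes higher and 6 lower of 14. Manf, a secreted stress protein, rose by 1.11 ± 0.08 and Atf6 by 0.79 ± 0.06, while Edem1 fell by 1.39 ± 0.05 and Ern1, which encodes the sensor IRE1, by 1.28 ± 0.07, in the authors' deposited table. Of the 5 mitochondrial genes, Hspd1 rose by 0.34 ± 0.04 and Lonp1 fell by 0.22 ± 0.05 in the authors' deposited table. Changed members, 7 of 10, stood beside 55.7% of all tested genes in this table.

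With vehicle, 1 member was listed in podocytes. Atf3 was at 1518 derived counts in KD and 1145 in scramble podocytes, with a log2 fold change of 0.41 ± 0.11 in the authors' deposited table (adjusted p 0.00444). In the authors' deposited table, 14.3% of 13876 tested genes passed the threshold, 8.70% on the higher and 5.64% on the lower side. The other 9 members did not pass or were not tested, and a tested gene that is absent had a p above 0.00717, the largest listed. This fold change of Atf3 lost its call with Bonferroni adjustment. Of the 94 wider genes 13 rose and 7 fell. Cbs, of cysteine synthesis, rose by 2.30 ± 0.39, Cebpa by 1.68 ± 0.27, Ndrg1 by 0.89 ± 0.12 and Stc2, a secreted glycoprotein, by 0.81 ± 0.14, while Gdf15 fell by 0.79 ± 0.17 and Phgdh, of serine synthesis, by 0.46 ± 0.16, in the authors' deposited table. No transporter or synthetase gene of the lists was listed there. Hspa5 (0.33 ± 0.09) and Hsp90b1 (0.33 ± 0.08) rose with vehicle in the authors' deposited table, where 4 genes of the ATF6 and XBP1 arm rose and 1 fell.

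The Adriamycin tables of MEFs and podocytes gave Ddit3 and Ppp1r15a opposite directions. The log2 fold change of Ddit3 was 1.50 in KO over WT MEFs and -0.80 in KD over scramble podocytes, a difference of 2.31 ± 0.13 (z test, adjusted p 8.02e-72). For Ppp1r15a it was 0.76 in MEFs and -0.60 in podocytes, a difference of 1.36 ± 0.21 (z test, adjusted p 2.18e-10). Atf5, Trib3 and Asns were called higher in both cell types, and their differences of 0.38 ± 0.23, 0.37 ± 0.28 and 0.24 ± 0.19 did not pass (z test, adjusted p 0.109, 0.221 and 0.217). Nor did those of Atf4 (-0.17 ± 0.11) and Cebpb (-0.27 ± 0.42), at an adjusted p of 0.139 and 0.557. This test was added after the data were seen and covers the 8842 genes listed in the podocyte table and tested in MEFs. Of them 79.3% differed, 38.8% higher in MEFs and 40.5% lower. Genes entered only by passing the podocyte threshold, and Atf3, Ddit4 and Chac1 could not enter. The p-values and the 79.3% thus come from genes selected on 1 side and do not hold for genes at large. Of the 3191 genes changed in both of these tables, 74.5% had opposite directions, so 2 of 5 members with opposite directions is no larger a share than in the tables as a whole. The direction of the podocyte Adriamycin table rests on the sign of Kat8 alone, as in the other tables, and no second label or value settles it. Of the 1518 genes changed in podocytes under both drug conditions, 34.3% had opposite directions. Of the 890 genes changed with vehicle in both cell types, 38.7% did. The share was 2.7% of the 2923 genes changed in MEFs under both drug conditions. It was 68.9% of 4003 genes between MEFs with vehicle and podocytes with Adriamycin, and 49.5% of 667 between MEFs with Adriamycin and podocytes with vehicle. Whether the podocyte Adriamycin table is turned was not tested. Were it turned, Ddit3 and Ppp1r15a would share their direction across cell types, Atf5, Trib3 and Asns would not, and Kat8 would be higher in KD podocytes. Cell type, way of Mof depletion and dose all differ between these tables and cannot be told apart.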

How the data were processed

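The members and gene lists were chosen with earlier results of these data known. GRCm38 is the build, and DESeq2 1.4.1, TopHat2 2.0.13 and featureCounts 1.4.5-p1 are the tools, that the authors named per the submitters' processing notes. The signal is the authors' mean over samples of counts divided by size factors. The log2 fold change, its SE, the score (Wald statistic), the p-value and the Benjamini-Hochberg adjusted p-value are also as the authors deposited them. Fold changes are read as shrunken: in the deposited MEF vehicle table, the median SE was 0.434 at mean counts below 1 and 0.701 at 1 to 3.

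A gene counted as changed at a deposited adjusted p below 0.05. How many podocyte genes were tested was recovered by inverting the adjustment. The group level derived here assumes 3 against 3 samples and that fold change. The z test divides a difference of fold changes by the root of the summed squared SEs, with a two-sided normal p and Benjamini-Hochberg adjustment (Python 3.11.15, scipy 1.17.1). Its use between the MEF tables was tested on simulated data with normal errors of the size of the deposited SEs. That simulation covers neither shrunken fold changes nor the selection of podocyte genes by their threshold. Intervals are 1.96 SE at 95%. Coordinates and exon lengths are from GENCODE M21. Members and Kat8 were named throughout, and of each list up to 4 genes, by smallest adjusted p, 2 in each direction. No member was listed in all 4 tables, so no gene of like pattern was named.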

Additional observations from a re-analysis of the deposited data

Results flagged for a closer look

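In MEFs, the effect of Mof loss on Ddit4 differed between drug conditions by the z test of the difference itself, at -0.643 on the log2 scale (0.10 with Adriamycin, 0.75 with vehicle). In the Adriamycin tables, the effect of Mof depletion differed between MEFs and podocytes by the same test for Ddit3, at 2.31 (1.50 in MEFs, -0.80 in podocytes). It differed for Ppp1r15a as well, at 1.36 (0.76 in MEFs, -0.60 in podocytes). Over all 8842 genes compared, 79.3% passed this test, against 2 of 7 members. The direction of the podocyte table rests on the sign of Kat8 alone, and both differences depend on it. Because the podocyte table lists only genes past its threshold, these last 2 differences come from genes selected on 1 side.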

How the results depend on the processing

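Members changed were 6 in MEFs with Adriamycin, 6 in MEFs with vehicle, 7 in podocytes with Adriamycin and 1 in podocytes with vehicle. A log2 fold change of at least 1 left 2 in MEFs with vehicle and 0 in both podocyte tables, which follows from the sizes given. In MEFs with Adriamycin it left Ddit3, Atf3, Atf5 (1.04) and Trib3 (1.03), the last pair close to the limit. Bonferroni adjustment left 3 members in MEFs with Adriamycin (Ddit3, Atf3 and Atf5), 0 in podocytes with vehicle and 0 for the difference between drug conditions. Of the wider lists (38 with Adriamycin and 44 with vehicle in MEFs, 71 and 20 in podocytes), a fold change of at least 1 left 3, 3, 14 and 2. Bonferroni left 12, 20 and 4 genes in MEFs with Adriamycin, MEFs with vehicle and podocytes with vehicle, and a threshold of 0.01 left 25 in MEFs with Adriamycin and 13 in podocytes with vehicle. Without the ATF6 and XBP1 arm, an alternative chosen after the data were seen, the counts were 34, 32, 58 and 15. The promoter count of 4 became 2 with TGATGCAA, 1 with TGACGTCA and 0 with the ER stress response element, counting exact matches only. No fold change of a named gene turned its direction. This was nearly fixed beforehand, since most alternatives leave fold changes as they are. Centring shifts them by the median (0.008 in MEFs with vehicle, -0.019 in MEFs with Adriamycin), and the rescaling used between the MEF tables multiplies by 0.947. The balance of the wider lists in MEFs with vehicle did turn. It was 20 higher and 24 lower with the arm, and 19 higher and 13 lower without it. The remaining alternatives, run on each MEF table (no count filter, a mean count of at least 100, centring), kept the member counts between 6 and 7. No replicate could be left out, and no paired analysis was possible because the deposited tables hold no value per sample. Rescaling podocyte to MEF fold changes was dropped, since the slope was negative (-0.189).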
